A study of Mus musculus with 2 samples.

Results

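In the Tet tcKO retina, the nuclei that the authors annotated as bipolar cells lay in 6 clusters, numbered 22, 35, 39, 41, 42 and 43. They were chosen here by the deposited annotation and cluster number alone, as every nucleus annotated as bipolar outside clusters 3, 4 and 7. They amounted to 1676 of the 14123 nuclei of both libraries, of which 1643 came from the Tet tcKO library and 33 from the Cre- library. Clusters 22, 35, 39, 41, 42 and 43 held 214, 409, 409, 188, 148 and 275 Tet tcKO nuclei and 8, 4, 2, 2, 14 and 3 Cre- nuclei, and no nucleus of these clusters had another annotation. Together they held 99.64% of the 1649 bipolar-annotated nuclei of the Tet tcKO library but 4.896% of the 674 of the Cre- library. The other 641 Cre- bipolar nuclei were in clusters 3, 4 and 7 (202, 160 and 279 nuclei), where the Tet tcKO library had 6. The question was what cell type each cluster resembled, set against the annotated cones and amacrine cells of the same library and against the Cre- bipolar nuclei of clusters 3, 4 and 7. Values of the clusters are those of their Tet tcKO nuclei unless the Cre- nuclei are named.

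Nuclei were isolated from whole retinas of C57 BL/6J mice at postnatal day 21. In the Tet tcKO mice, floxed exons of Tet1, Tet2 and Tet3, the genes of the enzymes that oxidise methylated cytosine, were removed by a Cre-GFP transgene that acts in retinal progenitor cells, and Cre+ mice were in-crossed to carry 2 copies because deletion by this transgene can be mosaic. The Cre- mice, labelled WT, had no Cre transgene, and the sources used here do not say whether they carried the floxed alleles. Retinas of each genotype were pooled, 4 or more at a time per the study's methods and more than 4 per the series description, in 2 dissociations that the files do not tell apart, so that there was 1 library per genotype. For that reason no test between genotypes or clusters was possible: intervals are 95% intervals that cover counting error of the transcripts only, and a difference between the libraries cannot be told apart from a difference between the genotypes. The clusters had been drawn by the authors from the same transcripts, so that differences between clusters are a description.

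Transcripts were counted as unique molecular identifiers (UMIs), which mark single molecules. The 6766 Tet tcKO nuclei had 16590747 UMIs in all and a median of 1836 each, against 11510585 and 1107 for the 7357 Cre- nuclei. Within the 6 clusters the median ranged from 1380 UMIs in cluster 42 to 4122 in cluster 39, and the pooled median, 2011, was near the 2023 of Cre- clusters 3, 4 and 7. No nucleus of the 6 clusters had fewer than 500 UMIs, and 1 cell barcode was shared between the libraries, in none of the 6 clusters. Levels are given as UMIs of a gene per 1000000 UMIs of a population (CPM). They are compared between populations and not between genes, since the number of UMIs per molecule differs from gene to gene with priming and length.

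Bipolar cells carry the signal of photoreceptors to amacrine and ganglion cells. ON bipolar cells sense glutamate with the receptor mGluR6, the product of Grm6, which closes the TRPM1 channel through a G protein held in place by GPR179 and other scaffold proteins. OFF bipolar cells use ionotropic receptors such as the kainate receptor subunit made from Grik1, and rod bipolar cells are known for abundant protein kinase C alpha, the product of Prkca. Cones, in contrast, express cone opsins (Opn1sw, Opn1mw), cone arrestin (Arr3), cone transducin (Gnat2) and a cyclic nucleotide-gated channel with the subunit CNGB3. Bipolar cells and photoreceptors share the homeodomain factor OTX2, and photoreceptors also use its relative CRX. Both recognise the core sequence TAATCC.

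Start-site sequences of 4 genes are shown because their transcripts set the clusters apart in opposite ways. Trpm1 and Grm6, of the mGluR6 cascade, were highest in cluster 42 and lowest in cluster 22, whereas the cone arrestin gene Arr3 had its highest level in cluster 22 and its lowest in cluster 42. Lrit3, whose product is needed for TRPM1 at the dendrites of ON bipolar cells, was also highest in cluster 22 and lowest in cluster 42. The counting intervals of neighbouring clusters overlapped throughout for Lrit3. The sequences are those of RefSeq for GRCm38.p6, with 250 bases before and 50 bases after the start on the gene's own strand. Capitals mark TAATCC or its close variant TAATCT, searched on both strands (GGATTA and AGATTA on the opposite strand). The windows lie at chr7:64153585-64153884 (+) for Trpm1, chr11:50850435-50850734 (+) for Grm6, chrX:100605247-100605546 (+) for Arr3 and chr3:129804087-129804386 (-) for Lrit3.
Trpm1: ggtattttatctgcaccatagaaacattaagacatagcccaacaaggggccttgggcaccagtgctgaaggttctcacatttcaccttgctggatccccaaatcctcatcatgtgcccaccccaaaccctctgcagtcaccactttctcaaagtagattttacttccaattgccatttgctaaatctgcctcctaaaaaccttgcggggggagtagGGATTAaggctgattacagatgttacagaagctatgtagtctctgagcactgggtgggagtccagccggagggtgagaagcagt
Grm6: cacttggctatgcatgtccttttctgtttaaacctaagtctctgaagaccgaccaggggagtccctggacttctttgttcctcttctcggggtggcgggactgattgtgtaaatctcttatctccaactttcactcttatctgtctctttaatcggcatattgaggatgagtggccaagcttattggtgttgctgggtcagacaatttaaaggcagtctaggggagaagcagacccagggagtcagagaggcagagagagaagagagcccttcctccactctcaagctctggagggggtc
Arr3: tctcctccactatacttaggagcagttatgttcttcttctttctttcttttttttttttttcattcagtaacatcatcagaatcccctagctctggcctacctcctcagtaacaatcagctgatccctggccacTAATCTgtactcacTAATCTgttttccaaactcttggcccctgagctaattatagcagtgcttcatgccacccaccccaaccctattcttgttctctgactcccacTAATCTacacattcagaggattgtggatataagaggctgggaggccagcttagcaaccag
Lrit3: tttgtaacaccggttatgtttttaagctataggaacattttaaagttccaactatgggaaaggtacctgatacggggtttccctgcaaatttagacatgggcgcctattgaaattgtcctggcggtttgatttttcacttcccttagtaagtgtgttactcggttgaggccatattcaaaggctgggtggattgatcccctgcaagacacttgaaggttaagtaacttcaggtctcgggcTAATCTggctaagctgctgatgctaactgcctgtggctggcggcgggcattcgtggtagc
The Trpm1 window held 1 TAATCC, the Arr3 window 3 TAATCT and the Lrit3 window 1 TAATCT, whereas the letters of neither motif occurred in the Grm6 window. Trpm1 has another start site in the sequence table, with its window at chr7:64185209-64185508 (+), and that window held neither motif. Of 32851 RefSeq windows of the same length, 7.06% held TAATCC, 8.19% TAATCT and 14.4% either. A match is a description of the letters, and no binding was measured. Cngb3, Poteg and Myocd were not in the sequence table.

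The level of 6 genes given as markers of these clusters followed 1 order in 4 cases. In the order of clusters 22, 41, 35, 39, 43 and 42, Cngb3 (chr4:19280850-19510623, +, GRCm39) was at 7153, 3947, 2834, 2637, 2364 and 1490 CPM. The counting intervals of neighbours in this order did not overlap. In the Cre- bipolar nuclei of clusters 3, 4 and 7, Cngb3 was at 325 (298 to 353) CPM, in the Tet tcKO cones at 2043 (2010 to 2076), in the Tet tcKO amacrine cells at 763 (728 to 799) and in the Cre- cones at 237 (208 to 268). Thus 5 of the 6 clusters, all but cluster 42, had more Cngb3 than the annotated cones of their own library, and cluster 42 had more than the Cre- bipolar nuclei and the amacrine cells.

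Poteg (chr8:27937698-27985200, +, GRCm39, named Ankrd69 in the GENCODE annotation) and the non-coding gene Gm1698 (chr8:28094379-28110480, +) each share sequence on their strand with a further gene model, Gm45861, and the counting may have divided transcripts among the 3. Poteg was at 330.2, 184, 143, 140.1, 92.3 and 57.1 CPM in clusters 22, 41, 35, 39, 43 and 42, against 4.66 in Cre- clusters 3, 4 and 7 (8 UMIs) and 69.98 in Tet tcKO cones. Gm1698 was at 274, 147, 119.5, 89.7, 76.3 and 43.95 CPM in the same order, against 1.75 (3 UMIs) and 106. For both genes the intervals of clusters 22 and 41 did not overlap, while those of clusters 41 and 35 did. Myocd (chr11:65067387-65160828, -), the gene of the transcriptional coactivator myocardin, kept this order, with 125 CPM in cluster 22 and 17.6 in cluster 42, but the intervals of all its neighbours overlapped.

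Trpm1 (chr7:63803583-63922019, +, GRCm39) ran against this order. It was at 1521 (1365 to 1690) CPM in cluster 42, 909 (815 to 1010) in cluster 41, 638 (584 to 695) in cluster 43, 412 (369 to 459) in cluster 35, 391 (362 to 420.4) in cluster 39 and 138 (104 to 180.4) in cluster 22. Between neighbours, the intervals of clusters 35 and 39 alone overlapped. Cre- clusters 3, 4 and 7 had 1768 (1706 to 1832) CPM together and 1147, 2182 and 2722 CPM singly. Cluster 42 therefore lay within the range of the Cre- bipolar clusters, cluster 22 lay near the amacrine cells at 94.3 (82.3 to 108) CPM and the Müller glia at 121 (71.5 to 191) CPM of its library, and the other clusters lay between. Photoreceptors, which should lack the transcript, had 785 CPM in the rods and 538 in the cones of the Cre- library and 273 in the Tet tcKO cones.

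Lrit3 (chr3:129581530-129597679, -, GRCm39), also on the bipolar list, was at 125 CPM (49 UMIs) in cluster 22 and 8.79 (2 UMIs) in cluster 42, against 9.90 (17 UMIs) in Cre- clusters 3, 4 and 7 and 28.6 in Tet tcKO cones. It went with the cone genes over the clusters, although the intervals of neighbours overlapped throughout and cluster 43 stood above cluster 39. Between its highest and lowest cluster a gene differed 14.27 times for Lrit3, 11 times for Trpm1, 7.135 times for Myocd, 6.232 times for Gm1698, 5.779 times for Poteg and 4.8 times for Cngb3.

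**Figure D1:**
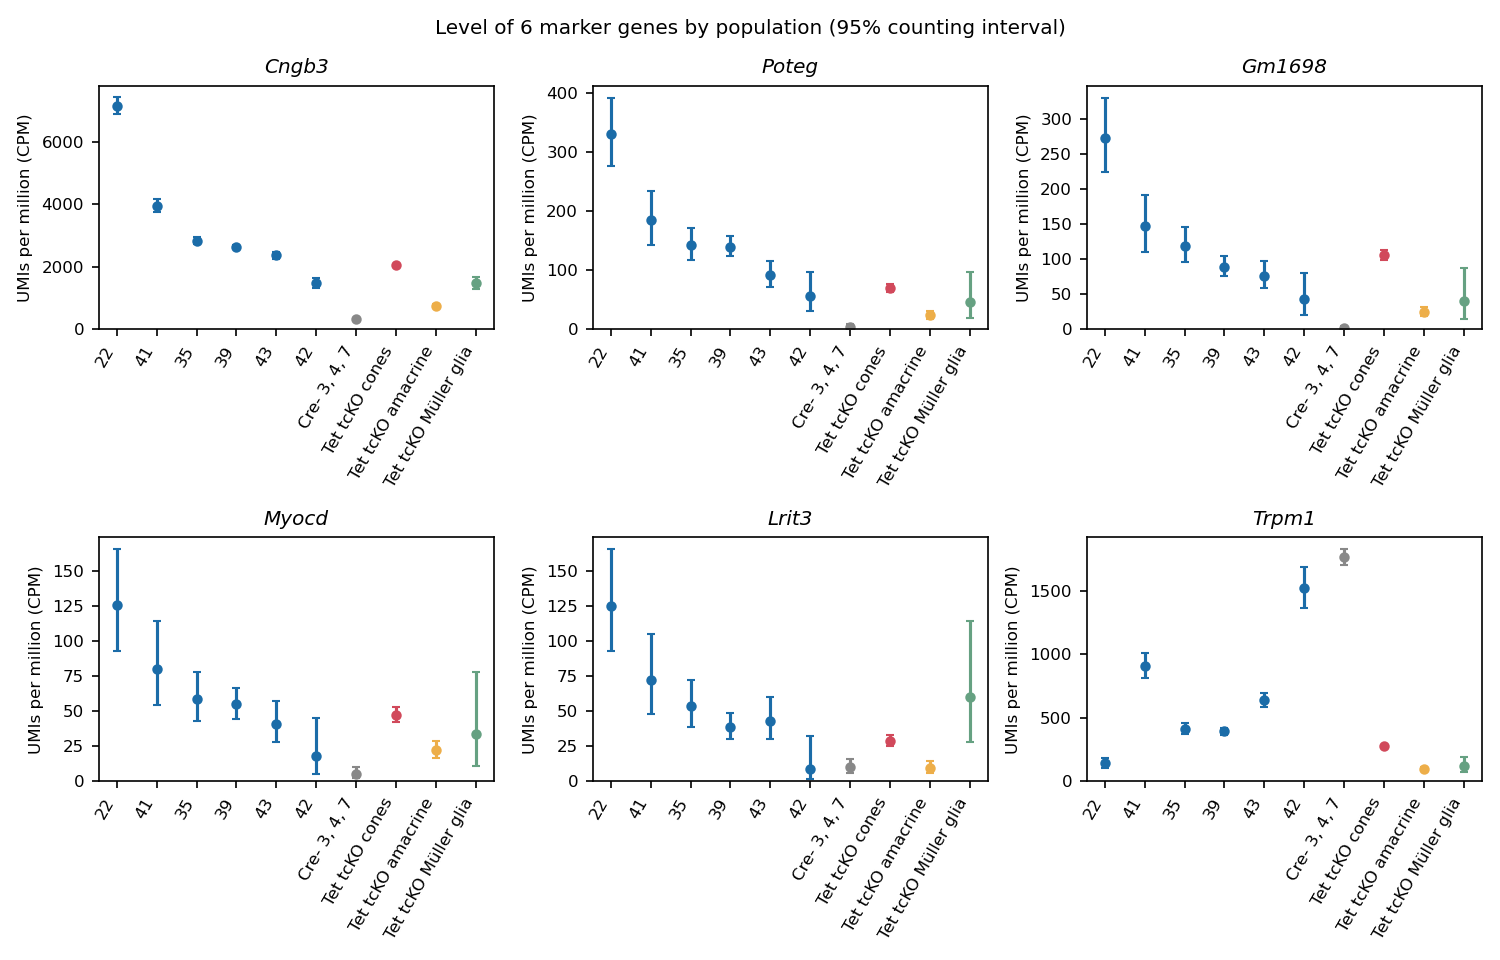
Level of the 6 marker genes (UMIs per 1000000) in clusters 22, 41, 35, 39, 43 and 42 of the Tet tcKO library and in the comparison populations, each point 1 population and each bar its 95% counting interval. Cngb3 ran from 7153 CPM in cluster 22 to 1490 in cluster 42, whereas Trpm1 ran from 138 to 1521 between the same clusters.

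Pooled over the 6 clusters, genes of bipolar identity were mostly below, and genes of cone identity mostly above, the Cre- bipolar nuclei of clusters 3, 4 and 7. The pool adds up UMIs, and cluster 39 supplied 1827720 of its 4436163 UMIs. Ratios are log2 ratios of CPM, and a gene was counted as higher or lower when it passed 2-fold (1 on the log2 scale) and had 10 CPM or more on either side. Among all 10902 such genes, 575 (5.27%) were higher and 409 (3.75%) were lower, with a median ratio of 0.08. Of 19 bipolar genes, 18 reached the minimum, with 2 higher, 6 lower and a median of -0.83. Of 13 genes of the mGluR6 cascade, which overlap that list, 1 was higher and 5 were lower, with a median of -0.92. Trpm1 had the lowest ratio of both lists, -1.77 (-1.85 to -1.69), and Pcp2, a G protein regulator of rod and ON bipolar cells, was at -1.68 (-1.94 to -1.43). Of the 6 marker genes, 5 were higher and Trpm1 was lower.

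Grm6 fell short of the 2-fold limit, with 184 CPM against 353 in the Cre- nuclei and a ratio of -0.94 (-1.09 to -0.79). Gpr179 was at -0.92 (-1.08 to -0.77), Prkca at -0.87 (-0.94 to -0.81) and Isl1, a LIM homeodomain factor of ON bipolar cells, at -0.79 (-0.97 to -0.62). The 2 genes of the bipolar list that were higher were Cabp5, a calcium-binding protein of bipolar cells, at 1.53 (1.19 to 1.90) and Lrit3 at 2.36 (1.65 to 3.17). Lrit3 went with the cone genes over the clusters and was higher in Tet tcKO cones than in the Cre- bipolar nuclei. Its ratio is therefore not read as a sign of bipolar identity. The bipolar transcription factors were less far apart: of 15 measured out of 20, 0 were higher and 1 was lower, Lhx3 at -1.42, with a median of -0.19. OFF cone bipolar genes had a median of 0.37 over 11 measured, with 0 higher and 1 lower, again Lhx3, and Grik1 was at 0.40 (0.30 to 0.50). Of 3 rod bipolar genes measured, 0 were higher and 1 was lower, and of 8 ON cone bipolar genes 1 was higher and 1 was lower. Of 12 receptor genes of bipolar cells, 0 were higher and 1 was lower, the GABA receptor subunit gene Gabrr1 at -1.37. The median of the bipolar list was -0.67 without cluster 39, -0.95 without cluster 42 and -0.49 when a nucleus gave at most 1 UMI per gene.

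Of the 13 cone genes, 8 were higher than in the Cre- bipolar nuclei and 2 were lower, with a median of 1.20. Cngb3 was at 3.24 (3.12 to 3.37) and Rxrg, a nuclear receptor of cones, at 3.19 (2.03 to 4.66) on 141 and 6 UMIs. Opn1sw, the short-wavelength opsin, was at 255 CPM against 47.7, a ratio of 2.42 (2.09 to 2.76). Gnat2 was at 1.60 (1.34 to 1.87), Arr3 at 1.20 (1.11 to 1.30) and Thrb, a thyroid hormone receptor that governs opsin choice, at 1.15 (1.01 to 1.28). The lowest was Pde6h, a subunit of the cone phosphodiesterase, at -1.95. With each gene counted once per nucleus, so that a nucleus with many UMIs of a gene counts no more than another, the median of the cone list was 0.70. Of 11 cone development genes measured out of 12, 4 were higher and 1 was lower, and Prdm1, a repressor of the bipolar fate in young photoreceptors, was at 2.21 (1.83 to 2.60).

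Markers of the other mature cell types were mostly lower or near the Cre- level. Of 11 rod genes, 0 were higher and 9 were lower, with a median of -1.49, and the lowest was the rod channel gene Cnga1 at -1.98. Rods made up 70.87% of the Cre- library and 0.08868% of the Tet tcKO library, and the part of free RNA in these ratios was not tested. Of 14 amacrine genes measured out of 17, 1 was higher and 0 were lower, with a median of -0.24, and of 13 Müller glia genes 0 were higher and 2 were lower, with a median of -0.15. Ganglion cell genes had a median of -0.63 over 7 measured, with 0 higher and 1 lower, and horizontal cell genes a median of -0.73 over 3, with 0 in either direction. Microglia, vascular and pigment epithelium genes had 0 higher and 0, 1 and 1 lower of 2, 4 and 2 measured. Of 15 ribbon synapse genes, 0 were higher and 2 were lower. Among all genes of this comparison, 5.27% were higher and 3.75% were lower, so a count of 0 in such short lists does not set them apart. Mitochondrial transcripts made up 1.256% of UMIs in the 6 clusters and 2.871% in Cre- clusters 3, 4 and 7.

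Among genes at 100 CPM or more on either side, the 5 highest ratios against Cre- clusters 3, 4 and 7 were those of Gm1698 (5.99), Robo3 (4.99), Poteg (4.99), Cngb3 (3.24) and Gna12 (3.06). Robo3, an axon guidance receptor of developing neurons, was at 222 CPM in the clusters, 6.99 in the Cre- bipolar nuclei and 336 in the Tet tcKO cones. The 5 lowest were Endov (-2.37), Vtn (-2.15), the rod channel gene Cnga1 (-1.98), mt-Atp8 (-1.89) and the rod exchanger gene Slc24a1 (-1.85). Of 10 genes of neuronal immaturity measured out of 12, 2 were higher and 0 were lower. Of 4 progenitor genes measured out of 11, 3 were higher. Among them, Fabp7, a fatty acid-binding protein of progenitors and glia, had 154 UMIs (34.7 CPM) in the clusters and 0 in the Cre- bipolar nuclei. Set against the floor of 3 UMIs over those Cre- nuclei, it was 4.31 higher on the log2 scale, a value that depends on that floor. Fabp7 was at 92.4 CPM in Tet tcKO cones. Of 14 genes that had been picked for their difference between these same libraries, 9 were higher and 5 were lower, which is no independent evidence of their direction.

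**Figure D2:**
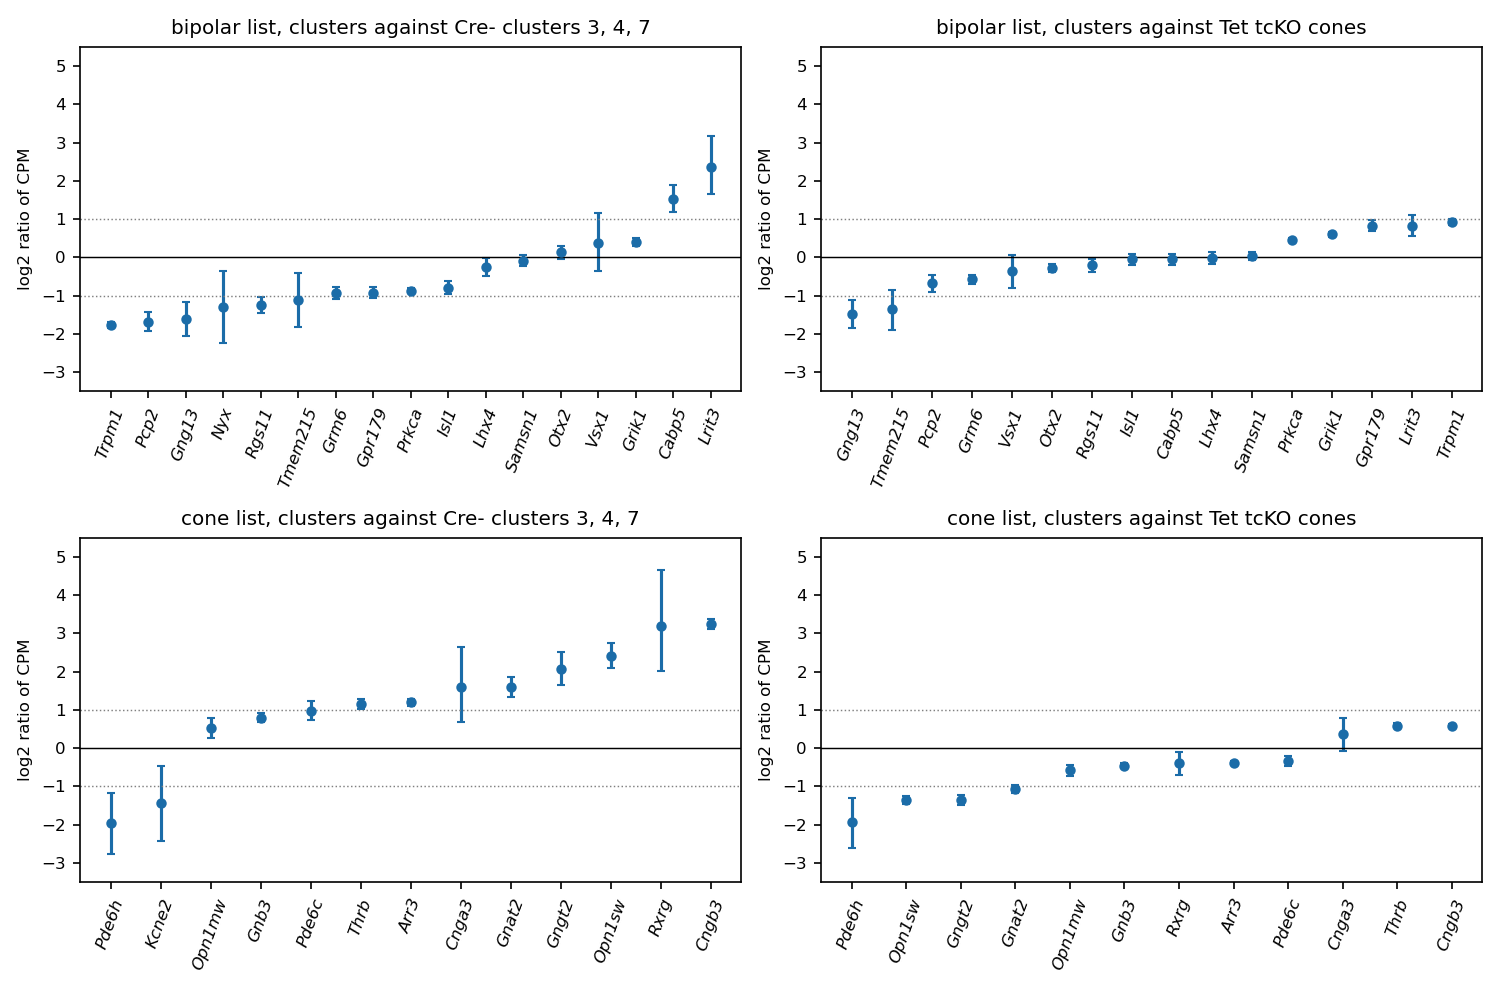
Log2 ratio of CPM of bipolar genes (1 of them not shown) and cone genes at 10 CPM or more, in the 6 pooled clusters against Cre- clusters 3, 4 and 7 and against Tet tcKO cones, with 95% counting intervals; dotted lines mark 2-fold. Against the Cre- nuclei the bipolar list ran from -1.77 (Trpm1) to 2.36 (Lrit3) and the cone list from -1.95 (Pde6h) to 3.24 (Cngb3), and against the cones the medians of both lists were nearer to 0.

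Against the 3225 annotated cones of the same library, single bipolar genes of the pooled clusters went either way. The 19 genes of the list took 0.421% of UMIs in the pooled clusters (0.415 to 0.427) and 0.348% in the cones (0.344 to 0.352), with 0.232% in cluster 22 and 1.05% in cluster 42. Of 17 measured, 0 were higher and 2 were lower, and the median was -0.05, with 0.05 under TMM scaling and 0.08 under median-of-ratios scaling. Among all 11356 genes, 189 (1.66%) were higher and 1255 (11.1%) were lower, with a median of -0.21. This split moved with the scaling: 314 and 893 genes under TMM, 350 and 836 under median of ratios, and 301 and 655 with each gene counted once per nucleus, so that 13.09% of the differing genes were higher in the main calculation and 26.01%, 29.51% and 31.49% in the others. The median of all genes was -0.10 under TMM and -0.07 under median of ratios. Trpm1 had the highest ratio on the bipolar list, 519 CPM against 273 (0.93, 0.84 to 1.01), and Gpr179 was at 0.83 (0.68 to 0.97), Grik1 at 0.60 (0.54 to 0.67) and Prkca at 0.45 (0.39 to 0.50). Grm6 went the other way, at -0.57 (-0.69 to -0.45), and Gng13, the gamma subunit of the ON bipolar G protein, was lowest at -1.48. Without cluster 39 the median of the bipolar list was 0.14, and without cluster 35 it was 0.03.

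Cone genes of the pooled clusters were mostly below the annotated cones, by less than 2-fold for most. Of 12 measured, 0 were higher and 4 were lower, with a median of -0.43, beside the median of -0.21 over all genes. Opn1sw was at 255 CPM against 653 (-1.36, -1.45 to -1.26), Gnat2 at -1.07 (-1.17 to -0.97) and Arr3 at -0.39 (-0.43 to -0.35). Pde6h had the lowest ratio, -1.92. Cngb3, at 0.59 (0.56 to 0.62), and Thrb, at 0.59 (0.51 to 0.66), were the other way. Of 11 rod genes 0 were higher and 7 were lower, with a median of -1.10, and of the 6 marker genes 1, Poteg, passed 2-fold, at 1.08 (0.91 to 1.25). Of 14 amacrine genes 1 was higher and 2 were lower, and of 13 Müller glia genes 0 were higher and 4 were lower.

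The genes at the ends of this comparison were of other kinds. Among genes at 100 CPM or more, the 5 highest were Zfp973 (1.77), Rnpc3 (1.60), A330076H08Rik (1.54), Gucy1a2 (1.38) and the nuclear non-coding RNA Malat1 (1.36). The 5 lowest were the rod transducin gene Gngt1 (-1.84), the ribosomal protein genes Rplp1 (-1.79) and Rps3 (-1.71), the cyclophilin gene Ppia (-1.74) and the chaperone gene Hspa8 (-1.66). Mitochondrial transcripts were 1.256% of UMIs in the clusters and 2.548% in the cones, and the part of RNA from outside the nucleus in these ratios was not tested.

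The 1043 annotated amacrine cells of the library were below the clusters in both gene lists. Over 10843 genes, 815 (7.52%) were higher in the clusters and 455 (4.20%) were lower, with a median of 0.10. Of 16 bipolar genes measured, 11 were higher and 0 were lower (median 1.68), and of 11 cone genes 10 were higher and 0 were lower (median 1.57, or 0.95 with each gene counted once per nucleus). Trpm1 was at 2.46 (2.26 to 2.67), Grm6 at 1.84 (1.56 to 2.13), Arr3 at 2.08 (1.98 to 2.19) and Cngb3 at 2.01 (1.94 to 2.08). Of 13 bipolar transcription factors measured, 8 were higher and 0 were lower, with a median of 1.42. Of 13 amacrine genes, 0 were higher and 7 were lower, with a median of -1.08, and Gad2, an enzyme of GABA synthesis, was lowest at -1.78. Pax6, a transcription factor kept in amacrine cells, was at 561 CPM in the clusters and 1042 in the amacrine cells (-0.89, -0.97 to -0.81).

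**Figure D3:**
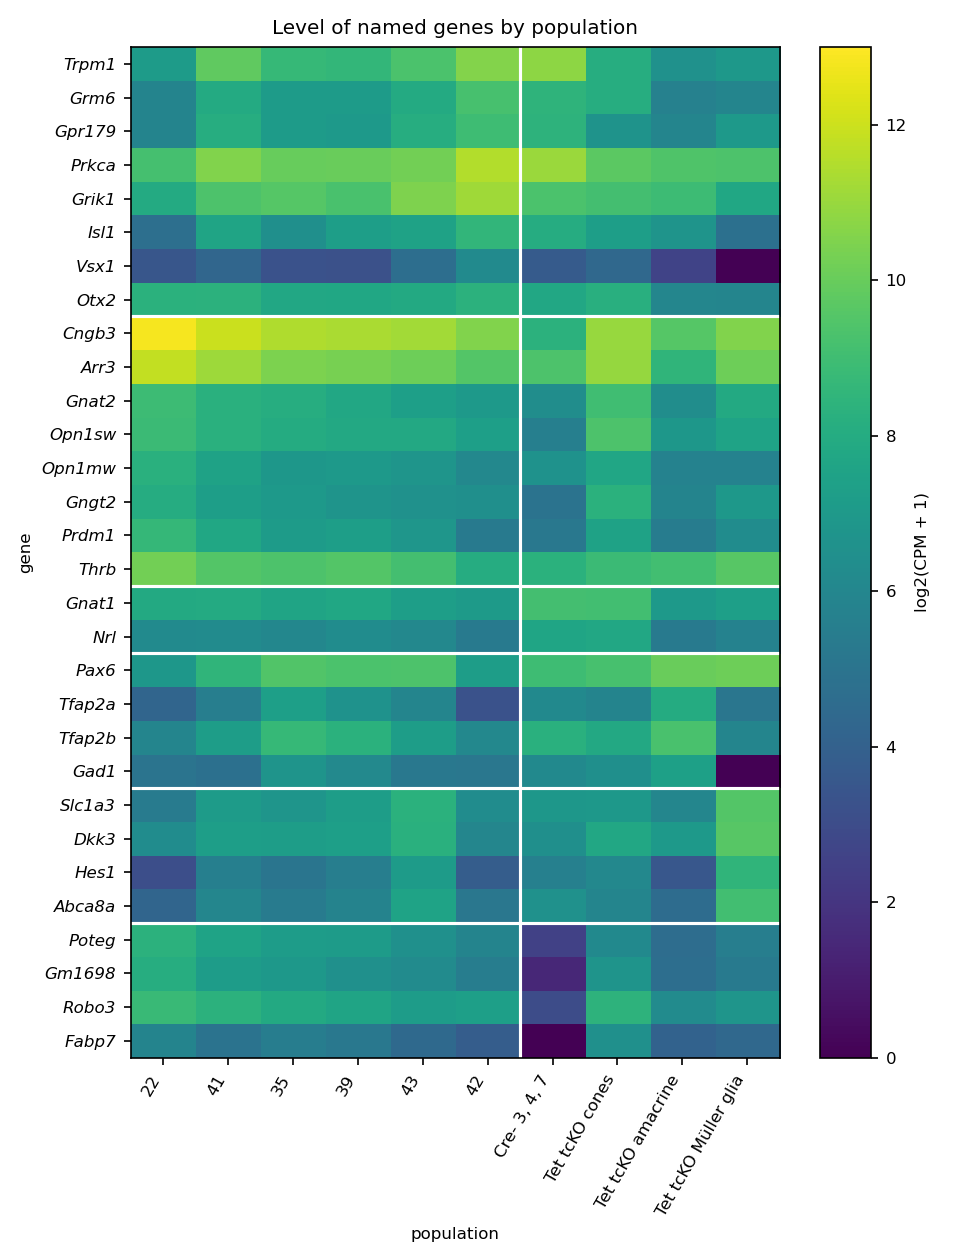
Level of named genes as log2 (CPM + 1), with gene groups separated by white lines, in the 6 clusters and the comparison populations (columns). Arr3 goes from 3553 CPM in cluster 22 to 734 in cluster 42 while Trpm1 goes from 138 to 1521, and among the 6 clusters Slc1a3 is highest in cluster 43 (314 CPM).

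In cluster 22, Trpm1, Grm6 and Gpr179 were near the level of the amacrine cells, and most cone genes were at or above that of the annotated cones. Its Grm6 level, 56.3 (35.3 to 85.3) CPM, was near that of the amacrine cells, 51.2 (42.5 to 61.3), and Isl1 was at 25.6 CPM (10 UMIs) against 261 in the Cre- bipolar nuclei. Against the Tet tcKO cones, over genes at 100 CPM or more, a minimum set after the data were seen, 152 of 2612 genes (5.82%) were higher and 316 (12.1%) were lower, with a median of 0.01. Of 13 genes of the bipolar list measured, 1 was higher and 5 were lower, with a median of -0.86. The higher one was Lrit3 (2.13, 1.65 to 2.58), which went with the cone genes over the clusters. Isl1 was at -2.61 (-3.67 to -1.72) and Grm6 at -2.28 (-2.96 to -1.68). Of 9 cone genes, 2 were higher and 0 were lower, with a median of 0.55. Those 2 were Cngb3 (1.81, 1.75 to 1.87) and Thrb (1.35, 1.21 to 1.49), and Arr3 was at 3553 CPM against 2003 (0.83, 0.75 to 0.91). The opsin gene Opn1sw was below the cones, at 466 CPM against 653 (-0.49, -0.71 to -0.27), and Gnat2 was at 489 CPM against 515 (-0.07, -0.29 to 0.14).

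Other photoreceptor genes of cluster 22 were also high: of 9 measured, 4 were higher and 1 was lower than in the cones, with Impg1, of the matrix around photoreceptors, at 1.27 (0.93 to 1.60), Prdm1 at 1.20 (0.95 to 1.44) and Tulp1, a photoreceptor trafficking gene, at 1.06 (0.96 to 1.16). Of 11 rod genes, 0 were higher and 3 were lower, with Nrl, which directs the rod fate, at -1.57 (-2.16 to -1.05). All 3 amacrine genes and all 4 Müller glia genes at this minimum were lower than in the cones, with Pax6 at 118 CPM against 586 (-2.31, -2.77 to -1.90) and Slc1a3, the glial glutamate transporter, at -1.57 (-2.38 to -0.86). Of the 6 marker genes, 5 were higher than in the cones, and Trpm1 was at -0.98 (-1.40 to -0.59). The median nucleus of cluster 22 gave 1.46% of its UMIs to the 13 cone genes and 0.196% to the 19 bipolar genes, against 0.734% and 0.342% in the annotated cones.

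Cluster 41 stood next to cluster 22 in its cone genes but had more of the mGluR6 cascade. Its Arr3 level was 2213 (2065 to 2369) CPM, with a log2 ratio to cluster 22 of -0.68 (-0.81 to -0.56), while Trpm1 had a ratio of 2.72 (2.30 to 3.16). Grm6 was at 243 (196 to 299) CPM, with a ratio of 2.11 (1.43 to 2.85), and Gpr179 at 278 (227 to 337) CPM. The median nucleus of cluster 41 gave 0.845% of its UMIs to the cone list and 0.434% to the bipolar list, both above the medians of the annotated cones. Cep290, a gene of the ciliary transition zone, was among its 10 leading genes by fold over all other nuclei of the library, at 1502 (1380 to 1631) CPM, but cluster 22 had 1618 (1494 to 1749) CPM of it.

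Cluster 42 was the one whose bipolar genes stood mostly at or above the level of the pooled Cre- bipolar nuclei. Over genes at 100 CPM or more, 189 of 2471 (7.65%) were higher than in Cre- clusters 3, 4 and 7 and 281 (11.4%) were lower, with a median of -0.03. Of 12 bipolar genes measured, 3 were higher and 0 were lower, with a median of 0.55. Trpm1 was at -0.22 (-0.38 to -0.06), Grm6 at 0.74 (0.46 to 1.01), Gpr179 at 0.54 (0.24 to 0.84) and Prkca at 0.44 (0.32 to 0.56). Those that passed included Grik1, at 2299 CPM against 639.9 (1.84, 1.69 to 2.00), and Samsn1 at 1.37 (1.12 to 1.62). Vsx1, a factor of cone bipolar cells, was below the minimum at 74.7 CPM (17 UMIs), against 12.2 (21 UMIs). Cre- cluster 3 supplied 899171 of the 1717546 UMIs of the pooled Cre- nuclei. The bipolar list took 0.503%, 0.825% and 0.953% of UMIs in Cre- clusters 3, 4 and 7, and 1.05% in cluster 42. Beside Cre- cluster 7 alone, cluster 42 had 501 against 495 CPM of Gpr179 and 1521 against 2722 of Trpm1. Not every gain over the pool was thus a gain over Cre- cluster 7.

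OFF cone bipolar genes of cluster 42 had 3 higher and 0 lower of 4 measured and a median of 1.74, with Tacr3, a neurokinin receptor, at 1.92 (1.22 to 2.58) and the receptor kinase gene Erbb4 at 1.64 (1.31 to 1.96). Bipolar receptor genes had 4 higher and 0 lower of 10, with a median of 0.81, and ON cone bipolar genes had 2 higher and 0 lower of 4, led by Epha7 at 2.27 (1.89 to 2.63). All 4 amacrine genes measured were lower, Pax6 among them at 149 CPM against 504 (-1.75, -2.29 to -1.26), and rod genes were lower in 10 of 11. Cone genes were still present in this cluster. Of 6 measured, 3 were higher and 0 were lower than in the Cre- bipolar nuclei, with Cngb3 at 2.20 (2.00 to 2.40), whereas Arr3 was at 734 CPM against 665 (0.14, -0.10 to 0.38). Robo3 was at 163 CPM against 6.99 (4.54, 3.57 to 5.62), and Poteg at 57.1 against 4.66 (3.62, 2.24 to 5.09, on 13 and 8 UMIs).

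Within cluster 42, nuclei rich in Trpm1 and nuclei rich in Grik1 differed in Prkca and Erbb4. The limit was 5 UMIs, which was set after the data were seen. Of 148 nuclei, 27 had that many of Trpm1, 18 others had that many of Grik1, and 1 of the 27 had both. The 18 had fewer than 5 UMIs of Trpm1 by definition, and the overlap was not compared with that of independent genes. It is therefore not read as a sign that these transcripts exclude each other. Prkca, which was not used to pick them, was at 11017 CPM in the 27 Trpm1-rich nuclei (551 UMIs) and 284 in the 18 Grik1-rich nuclei (9 UMIs). Erbb4, in the opposite direction, was at 59.98 and 663 CPM. Cngb3 was at 1240 CPM in the Trpm1-rich and 1578 in the Grik1-rich nuclei. The 27 nuclei held 249 of the 346 Trpm1 UMIs and 551 of the 653 Prkca UMIs of the cluster. The 103 nuclei rich in neither, 69.6% of the cluster, had 555.5 CPM of Trpm1 and 638 of Prkca. The 85 Trpm1-rich nuclei of Cre- cluster 7 had 5433 CPM of Prkca and the 12 Grik1-rich ones 1166. Cluster 22 had 1 Trpm1-rich and 6 Grik1-rich nuclei of 214.

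In cluster 43, the 13 Müller glia genes took 0.153% of UMIs (0.144 to 0.162), against 0.0514% in cluster 42 to 0.0911% in cluster 41 among the other clusters, 0.127% in the cones and 0.383% in the Müller glia. Slc1a3 was at 314 (276 to 355) CPM, above the 40.96 to 151 of the other 5 clusters and below the 737 of the 102 Tet tcKO Müller glia. Against cluster 42, Hes1, a Notch target kept in glia, was at 140.3 CPM and 13.2 (114 and 3 UMIs), and Dkk3, a secreted Wnt modulator of Müller glia, at 304 and 61.5 (2.30, 1.53 to 3.20). Abca8a, a transporter gene of Müller glia, was at 185 CPM against 35.2 (2.39, 1.38 to 3.63). Its leading genes included the Wnt effector genes Tcf7l1 (4.87-fold over all other nuclei of the library), Tcf7l2 (3.67) and Lef1 (3.35). The median nucleus of cluster 43 gave 0.126% of its UMIs to the Müller glia list, which was at the level of the cones (0.12%) and not of the Müller glia (0.354%). Grik1, at 1415 (1335 to 1499) CPM, was second to cluster 42.

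Cluster 43 also had Trpm1-rich and Grik1-rich nuclei. There were 32 and 36 of them among 275, with 8 of the 32 rich in both, and Prkca was at 3388 and 520 CPM. Slc1a3 was at 344.5 CPM in the Trpm1-rich and 296 in the Grik1-rich nuclei.

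Clusters 35 and 39 differed in depth more than in composition. Their median nucleus had 1633 and 4122 UMIs, and 6 of 2328 genes (0.258%) were higher and 3 (0.129%) were lower in cluster 39, over genes at 100 CPM or more. None of the 10 bipolar and 9 cone genes measured passed 2-fold, and the medians were -0.05 and -0.10. The higher genes included Rbpms, a ganglion cell gene, at 1.77 (1.21 to 2.38), Megf11 at 1.53 (1.09 to 1.99) and Sox2ot at 1.61 (1.08 to 2.20), and Wipf1, of which 90.57% of UMIs in cluster 35 came from 1 nucleus, was lower at -3.39. Amacrine genes were near the level of the cones in cluster 39 and somewhat above it in cluster 35. Pax6 was at 717 (659.5 to 778) CPM in cluster 35 and 632 (596 to 669.5) in cluster 39, and Tfap2b, an AP-2 factor of amacrine cells, at 412 (369 to 459) and 317 (292 to 344). The Tet tcKO amacrine cells had 1042 and 618 CPM of these genes, the Tet tcKO cones 586 and 232, and the Cre- bipolar nuclei 504 and 299.8. The 17 amacrine genes together took 0.193% of UMIs in cluster 35 and 0.157% in cluster 39, beside 0.148% in the cones, 0.145% in the Cre- bipolar nuclei and 0.279% in the amacrine cells, and of 6 measured between clusters 39 and 35, 0 were higher and 0 were lower. In cluster 35, a further AP-2 gene, Tfap2a, was among the 10 leading genes with each gene counted once per nucleus, at 158 (132 to 188) CPM against 255 in the amacrine cells, and no bipolar gene was.

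Doublet scores set cluster 39 apart. Scrublet called 0 doublets in either library at its automatic limit. That limit was not examined, so the calls are not used and the scores are given as ranks alone. Of the nuclei of cluster 39, 112 (27.38%) were in the highest 5% of scores of the library, against 47 (11.49%) in cluster 35, 15 in cluster 43, 9 in cluster 41 and 0 in clusters 22 and 42. The share was 2.202% in the cones and 2.496% in Cre- clusters 3, 4 and 7. The part of doublets in the gene levels of clusters 35 and 39 was not tested.

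**Figure D4:**
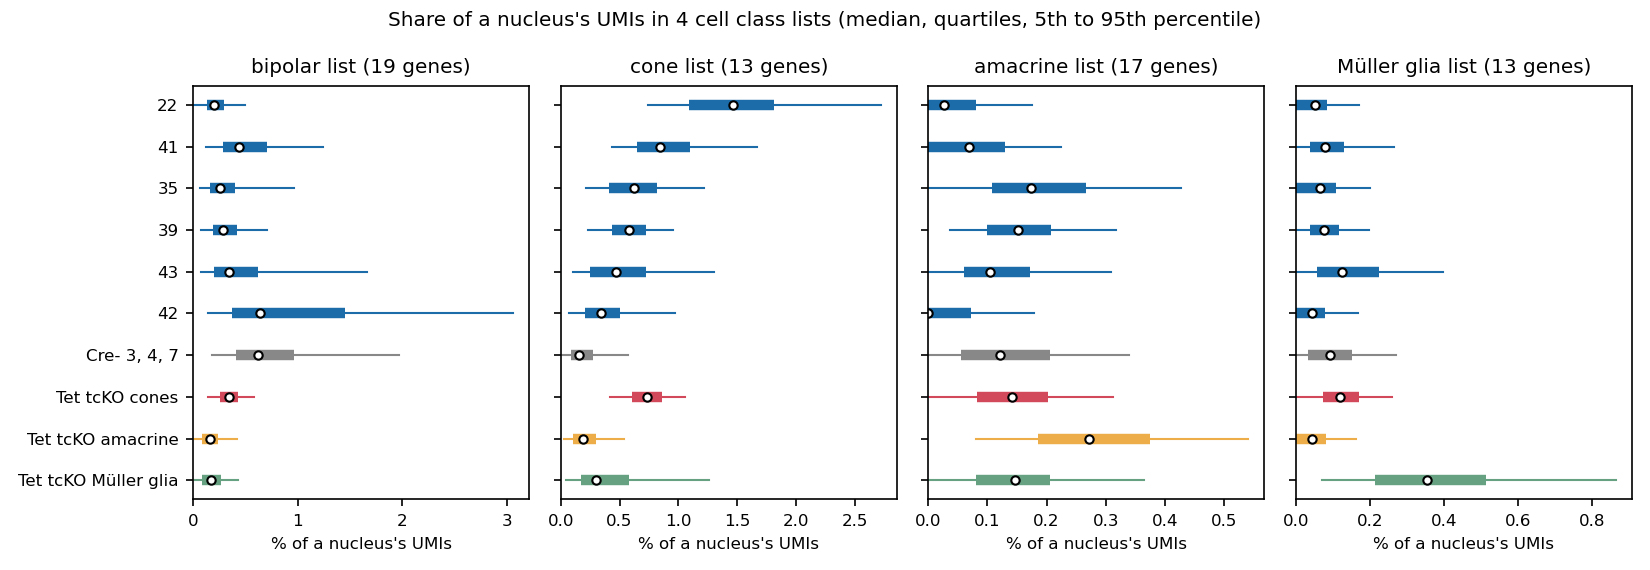
Percent of the UMIs of a nucleus given to the bipolar, cone, amacrine and Müller glia lists, by population; white points mark the median, thick bars the quartiles and thin lines the 5th to 95th percentile of nuclei. The median for the cone list runs from 1.46% in cluster 22 to 0.34% in cluster 42, and the median for the bipolar list is 0.64% in cluster 42 and 0.62% in Cre- clusters 3, 4 and 7.

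Shares of nuclei with a transcript were taken after each nucleus was thinned to 500 UMIs. Trpm1 was seen in 35.8% (28.1 to 44.1) of nuclei of cluster 42, 28.2% (21.9 to 35.2) of cluster 41, 16.4% (12.2 to 21.3) of cluster 43, 13.4% (10.3 to 17.1) of cluster 39, 11% (8.14 to 14.4) of cluster 35 and 5.61% (2.93 to 9.59) of cluster 22. In Cre- clusters 3, 4 and 7 it was seen in 54.8% (50.8 to 58.7). Amacrine cells, which should lack it, had 3.74% (2.67 to 5.08) at a median depth of 1736 UMIs. Tet tcKO cones had 13.4% (12.2 to 14.6) at 1715 and Cre- rods 32.6% at 1026. The amacrine cells and the cones of the same library differed, so their shares do not set a single background level. The part of free RNA in these shares was not tested. The interval of cluster 22 overlapped that of the amacrine cells, those of clusters 35, 39 and 43 overlapped that of the cones, and those of clusters 41 and 42 lay above both. Without thinning the shares were 51.4% in cluster 42, 55.3% in cluster 41, 16.8% in cluster 22, 84.9% in the Cre- bipolar nuclei, 42.9% in the cones and 13.2% in the amacrine cells. Trpm1-rich nuclei, with 5 UMIs or more before thinning, were 4.645%, 11.25%, 14.36% and 11.64% of clusters 35, 39, 41 and 43. Their Prkca level was 2966, 2209, 3966 and 3388 CPM, beside 1044 in Trpm1-rich cones and 2601 in Trpm1-rich amacrine cells. Such nuclei were 0.3721% of the cones and 0.5753% of the amacrine cells, and this limit favours deep nuclei. A share like that of the cones thus did not mean that Trpm1-rich nuclei were lacking.

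Cngb3 was seen in 96.3% (92.8 to 98.4) of thinned nuclei of cluster 22, 81.9% of cluster 41, 70.2% of cluster 35, 69.7% of cluster 39, 62.9% of cluster 43 and 56.8% (48.4 to 64.9) of cluster 42. The annotated cones had 65.5%, the amacrine cells 29.1%, the Müller glia 43.1% and the Cre- bipolar nuclei 16.4%. All 6 clusters were thus above the amacrine cells. Unthinned, the shares were 80.4% in cluster 42, 99.5% in cluster 22 and 64.3% in the amacrine cells. Nuclei with a UMI of Trpm1, Grm6 or Gpr179 and also of Cngb3 or Arr3 made up 34.6% (27.8 to 41.8) of cluster 41, 34.5% (26.8 to 42.7) of cluster 42, 17.6%, 19.8% and 20.7% of clusters 35, 39 and 43 and 10.3% of cluster 22. The cones had 24.9%, the Cre- bipolar nuclei 21.2% and the amacrine cells 2.88%, and unthinned the share was 73.6% in cluster 42, 70.5% in the cones and 22.5% in the amacrine cells.

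Ratios of the UMIs of 2 cone genes were compared between populations. The UMIs of Cngb3 over those of Arr3 were 2.01 (1.89 to 2.15) in cluster 22, 1.78 (1.64 to 1.94) in cluster 41, 2.03 (1.89 to 2.18) in cluster 35, 2.01 (1.92 to 2.12) in cluster 39, 2.14 (1.98 to 2.32) in cluster 43 and 2.03 (1.68 to 2.46) in cluster 42. The annotated cones had 1.02 (0.997 to 1.04), below every cluster. The amacrine cells had 2.11 (1.94 to 2.29), ganglion cells 1.48 (1.33 to 1.66) and Müller glia 1.31 (1.07 to 1.61). In the Cre- library, the bipolar nuclei of clusters 3, 4 and 7 had 0.489, rods 0.32 and cones 0.269.

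The ratio of Opn1sw to Arr3 was also unlike that of the cones. It was 0.131 (0.112 to 0.153) in cluster 22, 0.136 in cluster 41, 0.183 in cluster 35, 0.172 in cluster 39, 0.204 in cluster 43 and 0.216 (0.146 to 0.311) in cluster 42, against 0.326 (0.316 to 0.337) in the cones and 0.321 (0.279 to 0.369) in the amacrine cells. The Cngb3 to Arr3 ratio of the clusters was near that of the amacrine cells. The part of free RNA in the level of each gene was not tested.

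**Figure D5:**
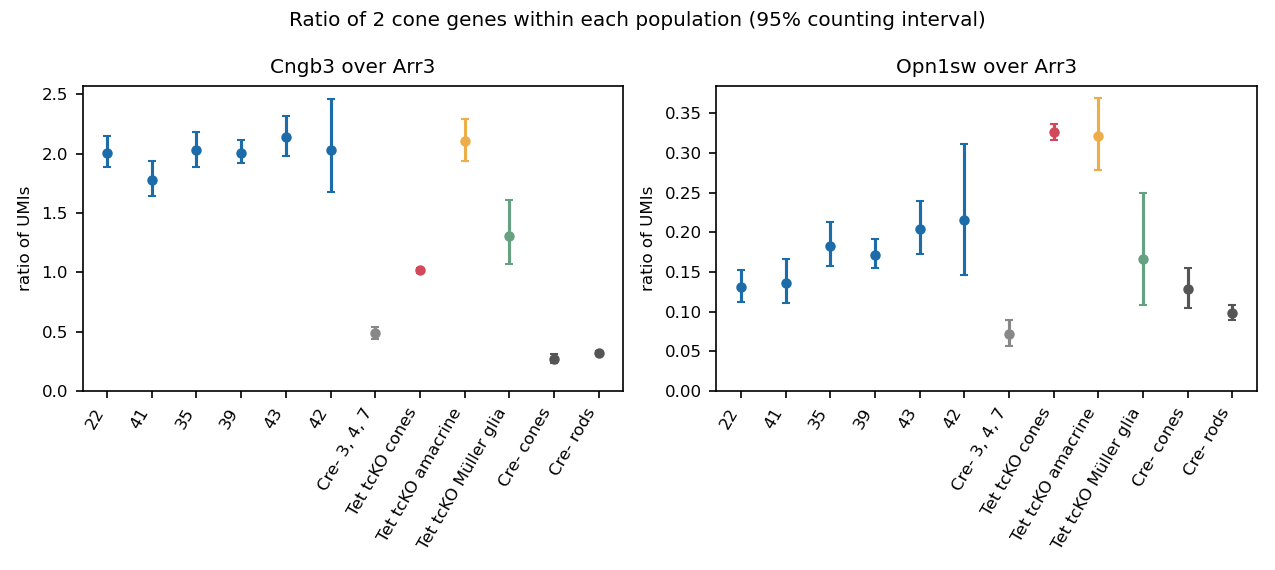
Ratio of UMIs of Cngb3 to Arr3 and of Opn1sw to Arr3 in each population, with 95% counting intervals. For Cngb3 the 6 clusters lie between 1.78 and 2.14, above the Tet tcKO cones at 1.02, and for Opn1sw between 0.131 and 0.216, below the cones at 0.326.

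The order of the clusters was shared by other genes. Over the 6 clusters, and among 1202 genes ranked, the genes whose log2 CPM was most like that of Cngb3 were Otud7b (Pearson r 0.998), Plec (0.996) and Opn1sw (0.996), with Arr3 (0.995) and Opn1mw (0.993) within the first 10. Among those most like Trpm1 were Rskr (0.993), Cyth1 (0.991) and Gpr179 (0.989), with Car8 (0.984) and Grm6 (0.983) within the first 10. The 6 points of each correlation come from 1 library and the same clustering, and no p is given. The ratio of UMIs of Grik1 to Trpm1 was 1.63 (1.55 to 1.72) over the 6 clusters and 0.362 (0.337 to 0.388) in the Cre- bipolar nuclei. It was 0.718 in cluster 41, 1.51 in cluster 42 and 2.22 in cluster 43, and 2.04 in the cones and 5.1 in the amacrine cells.

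Over 13557 genes at 10 CPM or more, the Spearman correlation of the whole profile with populations outside the 6 clusters was highest with the Tet tcKO cones for clusters 22 (0.898) and 41 (0.913), and with the Tet tcKO amacrine cells for clusters 35 (0.940), 39 (0.951), 42 (0.865) and 43 (0.916). Between the clusters themselves the correlation was higher for most: 0.929 for clusters 41 and 39, 0.963 for 35 and 39, 0.953 for 43 and 39 and 0.892 for 42 and 39, while cluster 22 reached 0.892 with cluster 41. The points of each correlation are genes of 2 profiles of unlike depth, and genes are not independent replicates. At 50 CPM or more, clusters 22, 41 and 39 kept their nearest population outside the 6 clusters, while clusters 35 and 43 were nearest to Cre- cluster 3 (0.893 and 0.846) and cluster 42 to Cre- cluster 7 (0.808). With all populations thinned to the same total and each gene centred on its mean, cluster 22 was at 0.406 with cluster 41. Among the populations outside the 6 clusters it was then nearest to the cones (0.284), cluster 43 to the Müller glia (0.269) and cluster 41 to the cones (0.163). Clusters 35, 39 and 42 had no value above 0.142.

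The genes that led each cluster were ranked by fold over all other nuclei of its library. Among its first 10 genes, none of the 6 clusters had 3 markers of any class, by summed UMIs or with each gene counted once per nucleus. Annotated bipolar clusters of the Cre- library did not have 3 either: by summed UMIs, bipolar genes were 0 of the first 10 in Cre- cluster 3, 1 in Cre- cluster 4 (Trpm1) and 2 in Cre- cluster 7 (Trpm1 and Gpr179). The count therefore does not tell the 6 clusters from the Cre- bipolar clusters. Cluster 42 had Trpm1 in place 8 by summed UMIs (5.68-fold) and the bipolar genes Vsx1 and Gpr179 once per nucleus, behind the non-coding gene Gm30893 (14.9-fold by summed UMIs). Cluster 22 was led by Gm26685, Gm12339 (6.75-fold once per nucleus), Gm9869 (5.26) and Crp (4.92), with Lrit3 next (4.35), but all 27 UMIs of Gm26685 came from 1 nucleus. Cluster 41 had Afmid in front once per nucleus (3.10) and Trpm1 in place 4 by summed UMIs (3.36-fold), cluster 35 was led by Igdcc3 (2.42) and Cdh22 (2.05), and cluster 39 by Gm50162, of which 98.79% of UMIs came from 1 nucleus, and Gm44577 (2.14). Cluster 43 had the Müller glia gene Abca8a among its first 10 by summed UMIs (3.70-fold) and no gene of the bipolar list. The clusters are compared by number, and no cell type name is given to any of them.

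The targeted genes themselves differed by less than 2-fold between the clusters and the Cre- bipolar nuclei. Tet1, Tet2 and Tet3 were at 69.4, 144 and 187 CPM in the 6 clusters and at 79.8, 109 and 189.8 CPM in Cre- clusters 3, 4 and 7, with ratios of -0.20 (-0.50 to 0.10), 0.40 (0.17 to 0.65) and -0.02 (-0.21 to 0.17). Counts over a whole gene do not show whether the floxed exons were present, so these values do not check the labels. Of 9 genes of DNA methylation measured out of 10, 0 were higher and 0 were lower than in the Cre- bipolar nuclei. Among all genes of this comparison, 5.27% were higher and 3.75% were lower. A count of 0 in so short a list is therefore not a result about its genes.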

How the data were processed

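Nuclei of whole retina were profiled with PIPseq. The authors deposited UMI counts per gene and nucleus, made with pipseeker 3.3.0 against GRCm39 and passed through CellBender to remove ambient RNA, after filters on transcripts and mitochondrial share, together with Monocle3 clusters and cell type annotation. The deposited percent of mitochondrial transcripts, the deposited size factor ratio per nucleus and the authors' mean signal per genotype, in counts scaled per nucleus, were not used for levels. That last file served for gene names alone.

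For each population, counts were added up over its nuclei and divided by their total (CPM). Exact Poisson intervals were given for levels, conditional exact intervals for ratios and Clopper-Pearson intervals for shares, all at 95% and for counting error only. In a ratio, a count of 0 was set to 3 for the population, and a gene with 3 counts or fewer in both populations got no ratio. The interval was tested on simulated counts. Genes were named if they were among the 6 markers, if they were list members with the largest ratios, if they led a cluster (50 CPM or more), if they were among the 5 highest or lowest ratios (100 CPM or more), or if they were Tet1, Tet2 or Tet3. Other named genes, the minimum of 100 CPM for single clusters and the limit of 5 UMIs were chosen after values were seen. The clusters, markers and gene lists were chosen with earlier results of these data known. Doublet scores came from Scrublet (scanpy 1.11.5), TMM factors from edgeR 4.0.16, and the rest from Python 3.11.15 (scipy 1.17.1, numpy 2.4.6, pandas 2.3.3). Gene positions come from GENCODE on GRCm39 and start-site sequences from RefSeq on GRCm38.p6, and the coordinates of the 2 builds were not mixed. Some genes of the lists count in the list values and are not reported here by name.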

Additional observations from a re-analysis of the deposited data

Results flagged for a closer look

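The 33 Cre- nuclei that the clustering placed in the 6 clusters entered no comparison above. The 8 of them in cluster 22, with 14526 UMIs together, had 5645 CPM of Arr3 (4490 to 7007, 82 UMIs) and 1515 CPM of Cngb3 (949 to 2293, 22 UMIs), above the 880.4 and 237 CPM of the 265 nuclei annotated as Cre- cones and the 735 and 236 CPM of the Cre- rods. They had 4 UMIs of Trpm1 and 0 of Poteg and of Gm1698. Their ratio of Cngb3 to Arr3 was 0.268, against 0.269 in the annotated Cre- cones and 2.01 in the Tet tcKO nuclei of the same cluster. Poteg was at 330 CPM in the Tet tcKO nuclei of cluster 22. The floor of 3 UMIs that ratios use for a count of 0 is 207 CPM in the 8 Cre- nuclei. It is a setting and not an upper limit of their level. These values come from 8 nuclei of 1 library and were not tested.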

How the results depend on the processing

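Of 78 list medians computed under an alternative, 65 moved by less than their counting interval and 74 kept their sign. Of 4537 values of single genes, 4082 moved by less than that interval and 4371 kept their sign. The number of genes past 2-fold against Cre- clusters 3, 4 and 7 was 984 at 10 CPM or more, 2907 at 1 CPM or more and 314 at 50 CPM or more, which changes the genes tested. The cone list against Cre- clusters 3, 4 and 7 had a median of 1.204, 0.6974 when a gene was counted once per nucleus and 1.344 without cluster 39, and the bipolar list one of -0.8334, -0.4877 once per nucleus, -0.6703 without cluster 39 and -0.9542 without cluster 42. Against Tet tcKO cones, the bipolar median of -0.05123 turned to 0.05232 under TMM, 0.07921 under median of ratios, 0.02691 without cluster 35 and 0.1388 without cluster 39. The cone median there, -0.4282, was -0.3247 under TMM, -0.2978 under median of ratios, -0.2868 once per nucleus, -0.323 without cluster 39 and -0.3664 without cluster 43. Against amacrine cells the cone median of 1.574 was 0.9492 once per nucleus. In each case the cause was not tested. The Malat1 ratio against cones, 1.362, was -0.02961 once per nucleus; at 34123 and 13276 CPM of Malat1 this count approaches 1 in every nucleus of both populations, which holds the ratio near 0 and says nothing of the 1.362. Leaving out nuclei under 1000 UMIs, the 5% of highest doublet scores, mitochondrial genes or the highest nucleus of each gene moved none of the list medians by more than its interval. The comparison of profiles after thinning was added after the data were seen. No paired analysis was possible because each genotype had 1 library. With 1 library per genotype, depth limits single-cluster values of low genes, such as 2 UMIs of Lrit3 in cluster 42.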

Other observations

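Cluster 42 held 14 Cre- nuclei, and these carried bipolar transcripts. Trpm1 was at 1685 CPM (1090 to 2487, 25 UMIs), near the 1768 of Cre- clusters 3, 4 and 7 and the 1521 of the Tet tcKO nuclei of cluster 42. Prkca was at 2359 CPM (35 UMIs) and Grik1 at 1820 (27 UMIs), the latter above the 640 CPM of Cre- clusters 3, 4 and 7 and near the 2299 of the Tet tcKO nuclei. The other 4 clusters held 11 Cre- nuclei between them, too few for a level by cluster. The 2 of them in cluster 41 had 31 UMIs of Arr3 and 11 of Cngb3 among 3579 UMIs, which was not tested.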
